A study of Homo sapiens with 4 samples.

Results

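Cohesin peaks that lay between genes and had no CTCF peak were examined in HG00731, a human lymphoblastoid cell line, that is, B cells made to grow continuously by Epstein-Barr virus. HiChIP, which captures chromatin contacts by in situ ligation and then enriches those carrying one protein by immunoprecipitation, was run for the cohesin subunit SMC1 after dual fixation with formaldehyde and EGS, and for CTCF after formaldehyde alone. Each target had 2 biological replicates of the same untreated line, and the authors merged them before calling peaks and loops. The peaks described here were chosen by peak calls: an SMC1 peak on chromosomes 1 to 22 was kept where it overlapped no CTCF peak, lay over 1 kb from every annotated transcript start (GENCODE release 44, hg38) and had its summit outside every protein-coding gene. The rule kept 15103 of 94628 SMC1 peaks, or 16.0% (95% Wilson interval 15.7 to 16.2), and 30.1% of the 50118 SMC1 peaks without CTCF. They are called CTCF-free peaks between genes below. The peaks used for comparison were the 14982 SMC1 peaks between genes that overlapped a CTCF peak and the 23496 SMC1 peaks without CTCF inside coding genes.

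Cohesin is a ring-shaped protein complex that entraps DNA and extrudes it into loops. CTCF, a zinc finger protein that reads a long DNA motif, halts extruding cohesin when the motif faces it, and the pair of halted sites forms the anchors of many loops. Cohesin is also found away from CTCF, at promoters and at enhancers, where lineage transcription factors and the loader NIPBL are bound. Factors of this kind in B cells include PU.1, EBF1, RUNX and IRF proteins, and Epstein-Barr virus keeps NF-kappaB active in lymphoblastoid cells.

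The 200 bases of the hg38 plus strand around the summits of 8 of these peaks are shown as examples. They come from a longer set of named sites and need not stand for the rest. The shares below were counted over all the peaks. Near MRTFB and NEK6 are 2 of the 5 peaks with the highest −log10 q. The peak near TET2 is among the 5 widest, those upstream of RUNX3 and near CLIP2 belong to 2 of the 5 loops of most read pairs in the loop list labelled CTCF, and those joined to SEMA6A, IKZF2 and MYLIP are the strongest peaks looped to these promoters. Capitals mark matches to the motifs searched, most often GATC, where the restriction enzyme DpnII cut the chromatin before ligation.
Near MRTFB, chr16:14354696-14354895: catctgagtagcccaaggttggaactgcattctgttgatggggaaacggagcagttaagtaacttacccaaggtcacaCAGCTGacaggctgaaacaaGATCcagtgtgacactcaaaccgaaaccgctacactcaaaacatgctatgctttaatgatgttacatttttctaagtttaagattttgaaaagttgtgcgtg
Near NEK6, chr9:124217271-124217470: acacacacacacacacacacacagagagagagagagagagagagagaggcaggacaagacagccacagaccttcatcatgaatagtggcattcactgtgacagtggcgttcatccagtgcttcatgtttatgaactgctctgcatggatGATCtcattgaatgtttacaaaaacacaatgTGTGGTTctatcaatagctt
Joined to SEMA6A, chr5:116614059-116614258: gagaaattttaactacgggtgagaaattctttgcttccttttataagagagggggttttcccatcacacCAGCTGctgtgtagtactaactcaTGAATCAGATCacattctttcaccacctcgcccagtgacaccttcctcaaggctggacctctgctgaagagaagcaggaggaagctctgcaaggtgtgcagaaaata
Joined to IKZF2, chr2:213227514-213227713: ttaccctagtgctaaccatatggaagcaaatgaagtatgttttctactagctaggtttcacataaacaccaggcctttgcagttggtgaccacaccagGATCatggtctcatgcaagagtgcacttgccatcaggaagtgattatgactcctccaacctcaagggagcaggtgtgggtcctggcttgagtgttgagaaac
Upstream of RUNX3, chr1:25031949-25032148: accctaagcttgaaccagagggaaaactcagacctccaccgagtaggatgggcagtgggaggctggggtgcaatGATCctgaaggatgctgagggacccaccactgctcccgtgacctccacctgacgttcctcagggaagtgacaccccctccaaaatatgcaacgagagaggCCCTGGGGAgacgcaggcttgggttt
Near CLIP2, chr7:74272549-74272748: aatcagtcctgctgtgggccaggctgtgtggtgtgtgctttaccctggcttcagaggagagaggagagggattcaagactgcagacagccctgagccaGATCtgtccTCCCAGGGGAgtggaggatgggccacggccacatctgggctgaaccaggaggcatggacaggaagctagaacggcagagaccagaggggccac
Near TET2, chr4:105060865-105061064: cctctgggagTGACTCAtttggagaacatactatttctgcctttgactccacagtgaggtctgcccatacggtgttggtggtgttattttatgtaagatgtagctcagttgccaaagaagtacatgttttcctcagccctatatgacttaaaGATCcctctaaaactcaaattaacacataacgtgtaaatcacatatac
Joined to MYLIP, chr6:15962140-15962339: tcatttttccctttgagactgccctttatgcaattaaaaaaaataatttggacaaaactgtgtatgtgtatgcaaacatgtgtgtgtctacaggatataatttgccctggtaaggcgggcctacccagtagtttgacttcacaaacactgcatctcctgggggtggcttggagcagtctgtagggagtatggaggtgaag
The NEK6 window held a RUNX match, TGTGGTT, at position 181 counted from its 5′ end. The SEMA6A window held TGAATCA, a match to the AP-1 letters TGANTCA, at position 94 directly before a GATC. The TET2 window held AP-1 at position 11. The CLIP2 and RUNX3 windows each held the EBF1 letters CCCNNGGGA. The window joined to MYLIP held none of the motifs and no GATC. No CTCF core was found in any of these 8 windows. That says little, as the core was in only 9.58% of such windows at peaks with CTCF between genes.

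The CTCF-free peaks between genes were weak compared with those that carried CTCF. MACS3, the peak caller the authors used, gave each peak a fold enrichment over the local background and a −log10 q, where q is the p-value adjusted for the number of positions tested. The median −log10 q was 6.98 (95% interval 6.85 to 7.11), with quartiles of 4.66 and 12.2 and a highest value of 167. The peaks with CTCF between genes had a median of 35.01 (34.1 to 35.9), and those without CTCF inside coding genes had 6.68 (6.597 to 6.70). The median fold enrichment was 2.76 against 4.82 at peaks with CTCF, and the median width 452 bases against 966.5. A −log10 q of at least 50 was reached by 269 of the CTCF-free peaks between genes, or 1.78%, and by 38.4% of those with CTCF. Only pooled lists were used, so the spread between the replicates is unknown, no difference was tested and no p-value is given. The intervals count peaks of 1 list and do not cover variation between replicates. The files do not give the sequencing depth behind the peaks. The study lists fewer reads for the CTCF libraries than for the SMC1 libraries, and a site called CTCF-free is one without a CTCF peak at that depth; the part of depth in this class was not tested.

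Peaks just inside and just outside the limits of the rule were compared as a description. The 230 peaks that lay up to 200 bases beyond the limit of 1 kb from a start had a median −log10 q of 7.15, and the 266 otherwise alike that fell short of it by under 200 bases had 8.33. Where a CTCF peak came within 200 bases without touching, the median was 6.28 in 91 peaks. Where the overlap was at most 200 bases, it was 6.70 in the 497 peaks that were left out.

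The 5 strongest peaks lay 38813 to 203827 bases from the nearest coding start. The peak with the highest −log10 q, at chr16:14354643-14355737, reached 167 with a fold enrichment of 6.79, and the nearest coding start was that of MRTFB, 154313 bases away, a coactivator of serum response factor. Another, at chr9:124216528-124218793, had 148 and lay 38813 bases from NEK6, a mitotic kinase. The fifth, on chromosome 8 inside LINC02948, had 135. All 5 were at an anchor of the CTCF-labelled loop list, and 2 of them, that near MRTFB included, also of the SMC1-labelled list. The 5 widest peaks spanned 2700 to 2988 bases, with −log10 q from 23.7 to 71.6. The widest, at chr18:54261580-54264567, lay 4950 bases from the start of POLI, a translesion DNA polymerase. One of 2706 bases at chr4:105058720-105061425, inside a non-coding gene, lay 84450 bases from TET2, a 5-methylcytosine oxidase, and 78907 bases from the nearest CTCF peak.

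Many of these peaks were inside non-coding genes. The summit lay in a long non-coding RNA gene in 4398 of the 15103 peaks, or 29.1% (28.4 to 29.8), and in 23.6% (22.9 to 24.3) of the peaks with CTCF between genes. The median distance to the nearest CTCF peak was 9676 bases; it was at most 1 kb for 13.4% of the peaks and over 100 kb for 3.31%. The nearest coding start was a median of 52047 bases away, and for 32.5% of the peaks it was over 100 kb away. The peaks also lay near one another: the median distance from a summit to the next summit of the same kind was 11347 bases, and 28.4% had one within 5 kb.

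Loops were read from the deposited lists, which the authors made with MAPS at a bin size of 5 kb, so that a peak was counted at an anchor where it overlapped an anchor bin by at least 1 base. Of the deposited lists, the one with SMC1 in its label has 28012 loops and the one with CTCF 80487. On chromosomes 1 to 22, all 27785 loops of the SMC1-labelled list had a CTCF peak at an anchor. All 79406 loops of the CTCF-labelled list had an SMC1 peak at an anchor, and 95.4% had a CTCF peak. Each label therefore goes with loops that always carried a peak of the other target, and the study's own account of loop numbers gives each list's number to the other target. Of the 27785 loops of the SMC1-labelled list, 27774 had an SMC1 peak at an anchor, so not all did. By these peaks and the study's loop numbers the labels appear exchanged. Values given for the SMC1-labelled list are then those of CTCF loops, and the reverse. Both lists are given side by side, as the SMC1-labelled and the CTCF-labelled list. MAPS calls loops only where an anchor holds a peak, so presence at an anchor is not independent of the peak calls.

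Of the 15103 CTCF-free peaks between genes, 5333 were at an anchor of the CTCF-labelled list, or 35.3% (34.6 to 36.1), against 51.4% of all SMC1 peaks on these chromosomes. The share was 62.6% (61.9 to 63.4) for peaks with CTCF between genes and 36.8% (36.2 to 37.5) for peaks without CTCF inside coding genes. At an anchor of the SMC1-labelled list were 1728, or 11.4% (10.9 to 12.0), against 22.3% of all SMC1 peaks, 30.6% of those with CTCF between genes and 11.3% of those without CTCF inside coding genes. This share fell to 5.61% for peaks with no CTCF peak within 5 kb, and to 6.07% with loops of at least the median read pairs; in the CTCF-labelled list the values were 24.7% and 22.02%. The share was lower than that of peaks with CTCF between genes on 22 of 22 chromosomes in both lists. Against peaks without CTCF inside genes it was lower on 12 chromosomes in the CTCF-labelled list and on 8 in the SMC1-labelled list. At an anchor of both lists were 1542 peaks, or 10.2%, and at none were 9584, or 63.5%. Because an anchor is 5 kb wide, it can hold a neighbour: of the 5333 peaks at an anchor of the CTCF-labelled list, 36.5% touched an anchor with a CTCF peak in it. The corresponding share was 52.3% of the 1728 in the SMC1-labelled list.

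Peak strength moved with presence at an anchor. The share at an anchor of the CTCF-labelled list was 22.8% of the CTCF-free peaks between genes with a −log10 q under 5, 31.6% from 5 to 10, 43.9% from 10 to 20, 60.2% from 20 to 50, 79.3% from 50 to 100 and 92.9% of the 28 peaks at 100 or more. Peaks with CTCF between genes had 25.3%, 29.4%, 41.6%, 59.3%, 82.6% and 95.4% in the same bands. The intervals of the CTCF-free and CTCF-bearing peaks overlapped in each band, which does not show that the shares were alike. For the SMC1-labelled list the intervals also overlapped up to a −log10 q of 50. From 50 to 100 the share was 23.7% (18.7 to 29.4) without CTCF against 37.5% (35.9 to 39.2) with it, and at 100 or more 46.4% (29.5 to 64.2) against 72.2% (70.4 to 73.9).

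**Figure D1:**
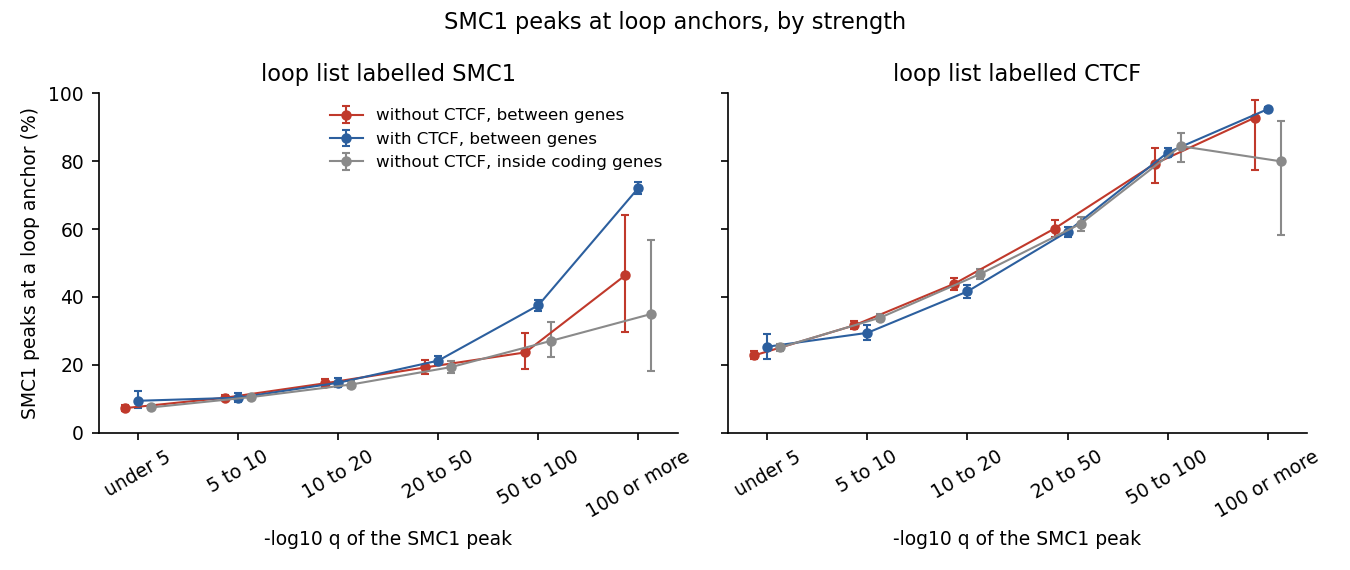
Share of SMC1 peaks at a loop anchor (vertical axis, percent) by band of −log10 q (horizontal axis) in the SMC1-labelled list (left) and the CTCF-labelled list (right), for CTCF-free peaks between genes (red), peaks with CTCF between genes (blue) and CTCF-free peaks inside coding genes (grey). Bars are 95% Wilson intervals. On the right all 3 kinds rise with −log10 q up to 100, and the red points go from 22.8% in the lowest band to 92.9% in the highest, and on the left the blue points rise to 72.2% at 100 or more while the red reach 46.4%.

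Anchors that held CTCF-free peaks between genes and no other SMC1 peak and no CTCF peak, called CTCF-free anchors, numbered 3001 in the CTCF-labelled list and 712 in the SMC1-labelled list. They had fewer partners than anchors whose SMC1 peaks were all between genes and with CTCF: a mean of 1.84 against 3.93 loops an anchor in the CTCF-labelled list, and 1.17 against 3.05 in the SMC1-labelled list. Anchors with CTCF-free peaks inside genes had means of 1.72 and 1.15 in the same order of lists. Anchors with no peak of either target had 1.31 and 1.14. A single loop was held by 59.3% of the CTCF-free anchors in the CTCF-labelled list and by 31.4% of those with CTCF. It was 62.0% with CTCF-free peaks inside genes and 78.3% with no peak. The number of partners moved with strength in the CTCF-labelled list, where CTCF-free anchors had a mean of 1.35 loops where the strongest peak was under 5 and 3.58 where it was 100 or more, beside 1.44 and 6.81 at anchors with CTCF. In the SMC1-labelled list no such rise was seen at CTCF-free anchors, with means of 1.16 in the lowest band and 1 in the highest, which held 11 anchors, while anchors with CTCF went from 1.32 to 4.35.

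The other end of these loops mostly carried CTCF. Of the 5529 loop ends in the CTCF-labelled list that started from a CTCF-free anchor, 4051, or 73.3% (72.1 to 74.4), had a CTCF peak at the partner. The share was 66.2% (65.7 to 66.7) from anchors with CTCF between genes and 74.4% (73.4 to 75.3) from anchors with CTCF-free peaks inside genes. It was higher, at 94.1% (93.8 to 94.4), from anchors with no peak. There all 21353 partners had to hold an SMC1 peak, as every loop of this list had one at an anchor. That share is therefore not like the others. The partner held no peak of either target in 5.08% of the loop ends from CTCF-free anchors and in 19.7% of those from anchors with CTCF. CTCF-free anchors were joined to each other in 310 of 5219 loops, or 5.94% (5.33 to 6.61). All 834 in the SMC1-labelled list had a CTCF peak at the partner, as every loop of that list had one at an anchor. A coding start lay within 1 kb of the partner in 22.7% (21.6 to 23.8) of the loop ends from CTCF-free anchors in the CTCF-labelled list, against 19.5% (19.1 to 19.95) from anchors with CTCF. It was higher, at 29.7% (28.7 to 30.7), from anchors with CTCF-free peaks inside genes and, at 25.9% (25.3 to 26.5), from anchors with no peak. The shares in the SMC1-labelled list were 30.3% (27.3 to 33.5) from CTCF-free anchors and 22.8% (22.1 to 23.6), 37.8% (35.2 to 40.4) and 31.2% (30.2 to 32.2) from the other kinds in the same order.

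The loops of CTCF-free anchors were shorter than those of anchors with CTCF. The median span was 100 kb against 160 kb at anchors with CTCF in the CTCF-labelled list, and 120 kb against 150 kb in the SMC1-labelled list. It was 90 and 110 kb at anchors with CTCF-free peaks inside genes, and 120 and 130 kb at anchors with no peak. A loop's strength was taken as its read pairs over the number MAPS expected. The median ratio in the CTCF-labelled list was 3.04 at anchors with CTCF-free peaks inside genes and 4.37 at anchors with no peak. At CTCF-free anchors it was 3.17, against 4.65 at anchors with CTCF. The ratio grew with span, and within bands of span it was 2.55 against 2.72 under 50 kb, 2.95 against 3.51 from 50 to 100 kb, 3.50 against 4.43 from 100 to 200 kb and 4.72 against 6.34 beyond 200 kb. For the SMC1-labelled list it was 2.62 against 2.62 under 50 kb and 5.79 against 5.56 beyond 200 kb.

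The loops of most read pairs from CTCF-free anchors were short. The highest in the CTCF-labelled list, with 477 read pairs, 2.03 times the number expected, spanned 20 kb and started at chr15:74400001-74405000, 28914 to 32444 bases from SEMA7A, a membrane-anchored semaphorin. The anchor held 2 of the peaks, with −log10 q of 23.1 and 109. The second, with 324 over 25 kb, started at chr6:190001-195000 in LINC03066, 96576 bases from DUSP22, a dual-specificity phosphatase. The third, with 304 read pairs over 10 kb, started at chr1:25030001-25035000 upstream of RUNX3, where 3 peaks had −log10 q of 26.8, 92.6 and 11.5. The fourth, with 301 read pairs over 15 kb, joined a peak with a −log10 q of 110 to the promoter of CLIP2, a linker of organelles to microtubules. The fifth, with 256 read pairs over 20 kb, joined 2 peaks to the promoter of CD27, a receptor of memory B cells, and its partner had no CTCF peak. The loops of most read pairs in the SMC1-labelled list had 98 to 158. The strongest, with 158 over 15 kb, joined an anchor at the start of ZBTB32, a zinc finger repressor, to that of KMT2B, a histone methyltransferase. Others, with 100 and 99 read pairs, had as partners the promoters of CCDC200 and PLEKHG2. Another joined a peak of −log10 q 5.45, 11930 bases from the start of IKZF2, to the IKZF2 promoter with 98 read pairs.

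Some promoters were looped to many CTCF-free anchors. MYLIP, which encodes an E3 ubiquitin ligase that lowers the low-density lipoprotein receptor, was joined to 17 such anchors in the SMC1-labelled list and to 16 in the CTCF-labelled list, more than any other gene in either list. Its gene lies at chr6:16129086-16148248, and the anchors lay upstream, 55 to 445 kb away in the former list and 95 to 445 kb in the latter. Single loops held 12 to 40 and 12 to 55 read pairs. The strongest in both lists spanned 230 kb, with 40 read pairs, 8.18 times the expected number, and 55 read pairs, 9.49 times. The 19 peaks in the anchors of the CTCF-labelled list had −log10 q from 3.52 to 37.8, with a median of 7.29, so that none reached 50.

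SEMA6A, a transmembrane semaphorin, was joined to 15 CTCF-free anchors in the CTCF-labelled list and to 3 in the SMC1-labelled list. Those of the CTCF-labelled list lay 35 to 555 kb upstream of the gene, with 16 to 121 read pairs a loop. Its 15 peaks had −log10 q from 3.63 to 63.2, and the strongest had a fold enrichment of 7.89. IKZF2, which encodes the Ikaros family factor Helios, was joined to 9 such anchors in the CTCF-labelled list and 6 in the SMC1-labelled list, on both sides of its start. The 4 upstream anchors of the CTCF-labelled list, 75 to 90 kb away, had 41 to 146 read pairs, and the 5 on the other side, 155 to 425 kb away, had 18 to 29. MARCKS, an actin-binding substrate of protein kinase C, had 7 in the CTCF-labelled list and 10 in the SMC1-labelled list. RASGRP1, an exchange factor that activates Ras in lymphocytes, had 7 and 5. Anchors next to one another are separate 5 kb bins and can hold the same contact, so these counts are of bins.

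**Figure D2:**
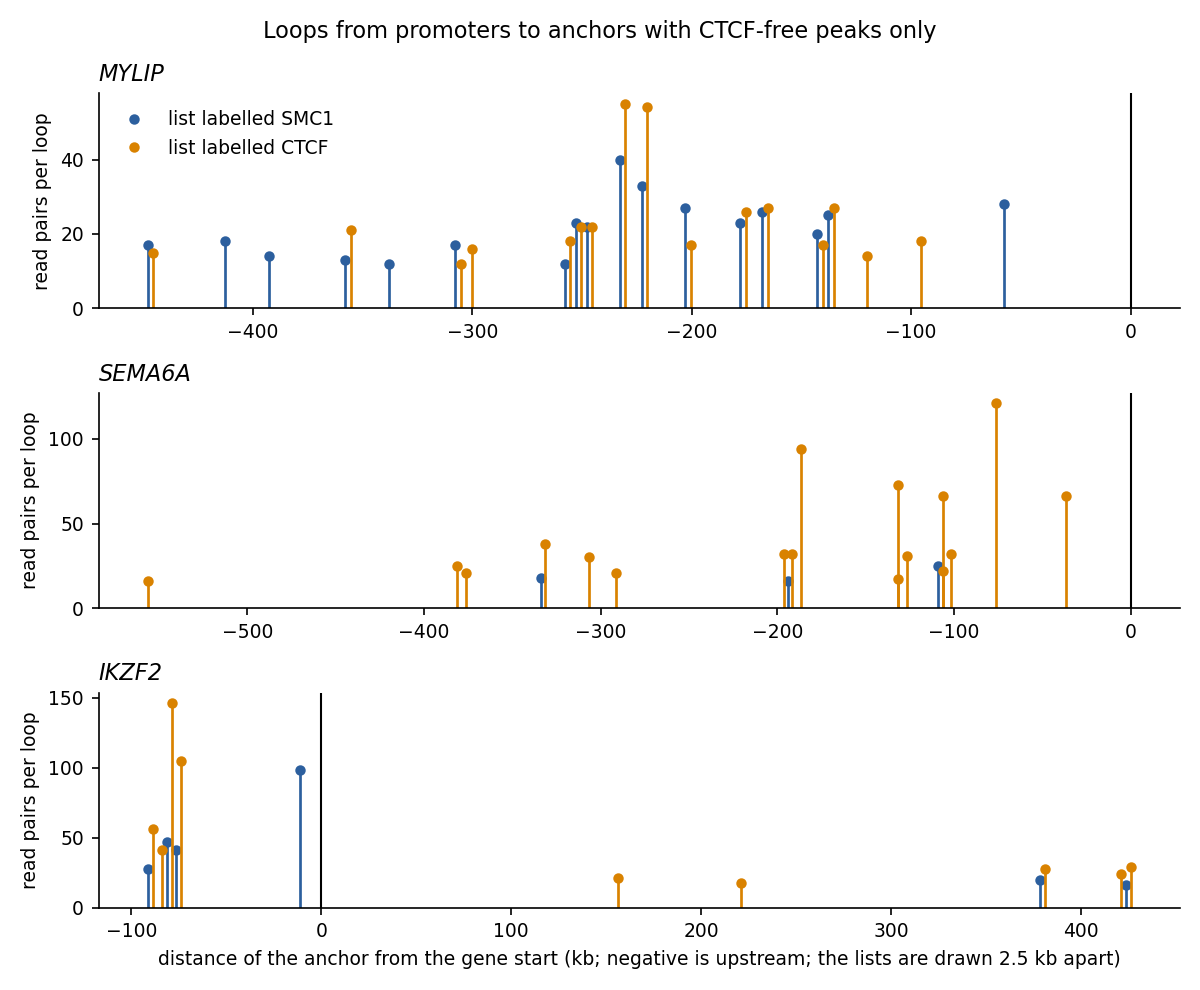
Read pairs per loop (vertical axis) against the distance of the CTCF-free anchor from the gene start in kb (horizontal axis, negative is upstream) for MYLIP, SEMA6A and IKZF2. Each stem is 1 loop, blue for the SMC1-labelled list and orange for the CTCF-labelled list, and the black line is the gene start. The MYLIP and SEMA6A stems all lie upstream, out to 445 and 555 kb, while those of IKZF2 lie on both sides and reach 146 read pairs within 90 kb upstream.

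Other leading genes had 6 or 7 such anchors in the CTCF-labelled list and 3 to 5 in the SMC1-labelled list. In the CTCF-labelled list they were IRF2BP2, a transcriptional corepressor, with 7, and CHSY1, a chondroitin synthase, FUT8, the core fucosyltransferase, PHLDA1 and the kinase gene PIM1 with 6 each. RHOU, TBL1XR1 and ZNF217 also had 6. The anchors of IRF2BP2 lay 250 to 440 kb away and those of PIM1 10 to 135 kb. In the SMC1-labelled list, CEBPB, a basic leucine zipper factor, CPNE5, a copine, and PPA2, a mitochondrial pyrophosphatase, had 5 each, BHLHE40, a basic helix-loop-helix repressor, 4, and BIRC2, an inhibitor of apoptosis, and COL1A1, a collagen chain, 3 each, a number that other genes shared. In all, 837 coding genes were joined in the CTCF-labelled list and 173 in the SMC1-labelled list, and 141 were in both, which is 16.8% of the former and 81.5% of the latter.

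B cell genes were often among them in the CTCF-labelled list. The gene lists were chosen with earlier results of these data known, and joining to other kinds of anchor was not compared. Of 18765 coding genes on these chromosomes 4.46% were joined to a CTCF-free anchor, and of the 9252 with a start at any loop anchor, 9.05%. Among 20 B cell transcription factors it was 7, or 35% (18.1 to 56.7), namely RUNX3, IRF4, BACH2, PRDM1, MEF2C, TCF3 and ETS1. RUNX3, a Runt factor, had the most read pairs of them, 614 over 6 loops, of which the strongest had 248. TCF3, which encodes the E proteins of early B cells, had 1 loop of 101 read pairs over 10 kb. IRF4, a factor of plasma cell differentiation, had 1 loop of 35 read pairs over 200 kb, and PRDM1, the plasma cell repressor Blimp-1, 1 of 13 over 345 kb.

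Of 29 genes of the B cell surface and of receptor signalling, 8 were joined, or 27.6% (14.7 to 45.7). They were CD79A, a signalling chain of the B cell receptor, the receptor inhibitor CD22, CD70 and its receptor CD27, the low-affinity IgE receptor FCER2, the adaptor BLNK, and the chemokine receptors CCR7 and CXCR4. CD27 had 420 read pairs over 2 loops, CD70 182 over 3, BLNK 162 in 1 loop and CCR7 106 in 1. Among 20 NF-kappaB and survival genes 4 were joined: NFKB1, which encodes the p50 precursor, TNFAIP3, the inhibitory enzyme A20, CCND2 and CCL22. TNFAIP3 was joined to 3 CTCF-free anchors 95 to 155 kb away, with 25 to 46 read pairs.

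Lists of other cell types had few. Of 19 T cell genes only GATA3 was joined, of 20 transcription factors of non-blood tissues only SOX9, which had 3 anchors at 12 to 19 read pairs, and of 20 ribosomal protein genes none. The intervals of these 3 lists hold the share of all coding genes, 4.46%, and reach 24.6%, 23.6% and 16.1%. As a share of the listed genes with a start at any loop anchor, the counts were 7 of 18 for B cell transcription factors, 8 of 25 for surface and signalling genes and 4 of 14 for NF-kappaB genes. On the same basis they were 1 of 9 for T cell genes, 1 of 8 for the non-blood factors and 0 of 13 for ribosomal protein genes. In the SMC1-labelled list, where 0.922% of all coding genes and 3.5% of those at any anchor were joined, the counts were 1 of 20 (RUNX3), 0 of 29, 2 of 20 (TNFAIP3 and BCL2) and 0 in the other 3 lists. A loop to a promoter is a contact and not a measure of expression.

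**Figure D3:**
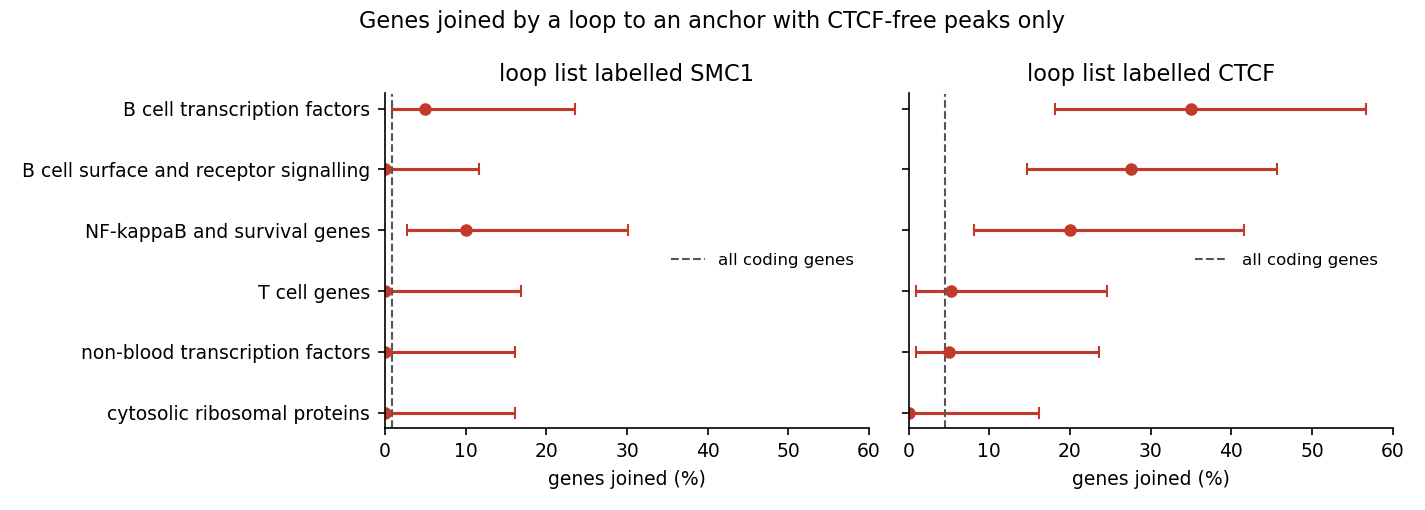
Share of listed coding genes joined by a loop to a CTCF-free anchor (horizontal axis, percent) for 6 gene lists in the SMC1-labelled list (left) and the CTCF-labelled list (right), with 95% Wilson intervals. The dashed lines mark all coding genes, 0.922% and 4.46%. On the right the 3 lists of B cell and NF-kappaB genes sit at 35%, 27.6% and 20%, with intervals above the line. The share among genes with a start at any loop anchor, 9.05% on the right, is not drawn.

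Motifs were searched by exact letters on both strands in the 200 bases at each summit of the reference, beside windows 2 kb to either side. A match is a description of letters, not a bound site. The 12-letter CTCF core, which allows several letters at some positions, was present in 71 of 15103 windows, or 0.470% (0.373 to 0.593), against 0.301% (0.245 to 0.370) in the windows 2 kb away and 9.58% (9.12 to 10.1) at peaks with CTCF between genes. Since the rule removed CTCF peaks, the low share checks the label and is not a finding. In 1000 bases it was 1.69% at the summits and 1.66% at 2 kb. None of the 269 peaks with a −log10 q of at least 50 held the core in 200 bases, where counting error allows up to 1.41%.

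Letters searched for AP-1 and for B cell factors were more frequent at these summits than nearby. AP-1 is the name for FOS, JUN and BATF proteins. The AP-1 letters TGANTCA allow any base in the middle, so not every match is a site these proteins prefer. They were in 10.3% (9.85 to 10.8) of the summit windows and in 6.39% (6.12 to 6.67) of those 2 kb away, higher at the summit on 22 of 22 chromosomes. The RUNX motif TGTGGTT was in 6.43% against 3.56%, on 21 chromosomes, and the PU.1 motif GAGGAAGT in 2.34% against 1.06%, on 22. The NF-kappaB motif GGGANTTTC was in 1.33% against 0.632%, on 20, and the EBF1 motif in 3.31% against 2.07%, on 21. Smaller ratios were seen for the IRF letters GAAANNGAA, 9.51% against 7.42%, the octamer ATGCAAAT, 2.34% against 1.75%, and the E-box CAGCTG, 10.4% against 8.06%. At least one of AP-1, RUNX, PU.1 and NF-kappaB was in 2913 windows, or 19.3% (18.7 to 19.9), against 11.3% (10.9 to 11.7). Over all SMC1 peaks, AP-1 was in 7.51% of the summit windows, RUNX in 5.02%, PU.1 in 1.84%, NF-kappaB in 1.01% and EBF1 in 3.91%. Higher shares at the summit were also seen at CTCF-free peaks inside coding genes, where AP-1 was in 8.85% against 5.89% at 2 kb, RUNX in 6.18% against 3.62%, PU.1 in 2.36% against 1.05%, NF-kappaB in 1.02% against 0.736% and EBF1 in 2.72% against 1.958%.

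Peaks with CTCF between genes had smaller ratios of summit to 2 kb for several motifs: AP-1 7.06% against 6.28% at 2 kb, RUNX 4.45% against 3.70%, PU.1 1.33% against 0.998% and NF-kappaB 0.975% against 0.711%. The ratios were also smaller for the IRF letters (1.06 against 1.28 at CTCF-free peaks), the octamer (0.977 against 1.34), HNF1 (1.02 against 1.24) and CRE (1.63 against 2.11), and for MEF2 and GATA. EBF1 stood at 3.86% against 2.31% and the E-box at 10.7% against 8.17%, as at the CTCF-free peaks. The remaining motifs were read at the CTCF-free summits in the same way. The GATA letters AGATAAG were in 2.73% against 2.79%, the YY1 letters AAGATGGC in 0.788% against 0.973%, the ZNF143 letters ACTACAATT in 0.159% against 0.215%, the NRF1 letters GCGCNTGCG in 0.0662% against 0.0828%, the MEF2 letters CTATTTATA in 0.331% against 0.288% and the ETS letters CCGGAAGT in 0.139% against 0.122%. The HNF1 letters GTTAATNAT were in 0.848% against 0.682%, and the CRE letters TGACGTCA in 0.132% against 0.0629%.

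**Figure D4:**
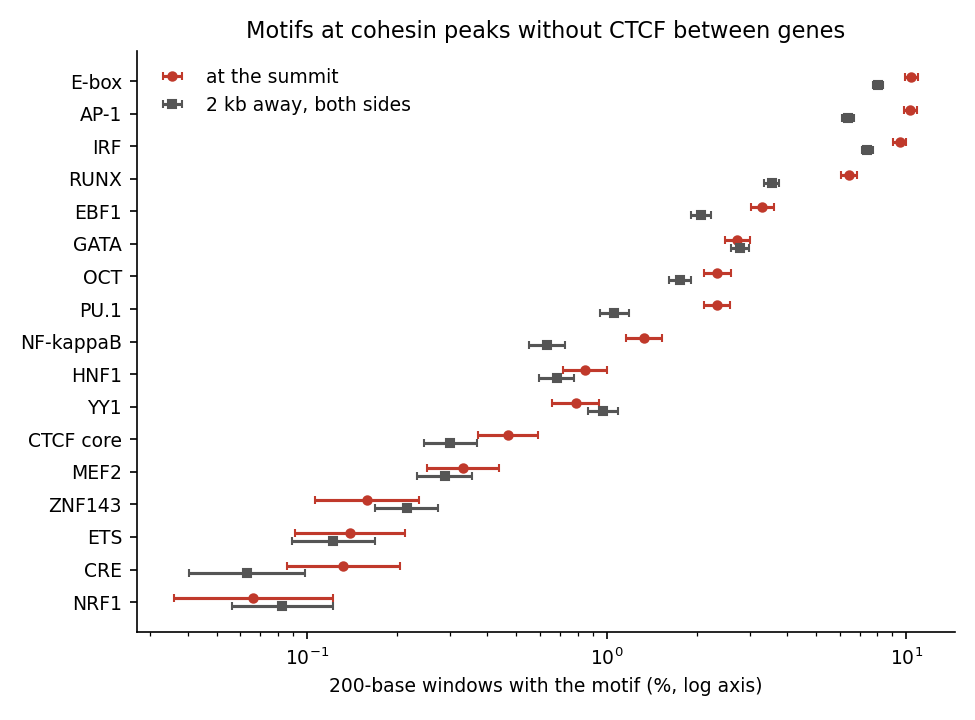
Share of 200-base windows with each motif (horizontal log axis, percent) at the summits of the CTCF-free peaks between genes (red circles) and 2 kb to either side (grey squares), with 95% Wilson intervals. AP-1, at 10.3% against 6.39%, RUNX, PU.1, NF-kappaB and EBF1 lie to the right of their grey squares with intervals apart, while GATA, at 2.73% against 2.79%, lies on its grey square.

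The shares of some motifs moved with strength. AP-1 was in 8.58% (7.79 to 9.43) of the windows of peaks with a −log10 q under 5, 9.54% from 5 to 10, 11.6% from 10 to 20, 14.7% from 20 to 50 and 16.7% (12.7 to 21.7) at 50 or more. RUNX ran from 5.53% (4.90 to 6.24) in the weakest band to 13.01% (9.51 to 17.6) in the strongest, and EBF1 from 2.67% to 5.95%. NF-kappaB went from 1.02% to 2.60%. PU.1 went from 1.76% to 4.02% from 20 to 50 and was 2.97% (1.51 to 5.76) at 50 or more. The IRF letters were in 8.26% under 5 and in 9.73%, 10.2%, 10.9% and 10.4% in the bands above. GATA stood at 2.84% and 2.23%. Presence at an anchor differed little with motifs: 36.9% (35.1 to 38.6) of peaks with AP-1, RUNX, PU.1 or NF-kappaB were at an anchor of the CTCF-labelled list, against 34.9% (34.1 to 35.8) of the others, and 12.4% (11.2 to 13.6) against 11.2% (10.7 to 11.8) in the SMC1-labelled list.

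The restriction site was the most frequent of the letters searched. GATC was in 73.6% (72.9 to 74.3) of the summit windows of CTCF-free peaks between genes and in 38.5% (38.0 to 39.1) of the windows 2 kb away, and in 75.5% and 40.3% at peaks with CTCF. A GATC lay within 20 bases of the summit in 36.0% of the CTCF-free peaks between genes, 36.7% of those inside coding genes and 24.0% of those with CTCF, against 9.62% and 9.94% at points 2 kb to the lower and higher side of the first. The median distance to the nearest GATC was 52 bases at the summits. The share with GATC was 66.3% in peaks with a −log10 q under 5 and 81.0% at 50 or more. The part of the restriction site in the calling of these peaks was not tested. Among windows that held a GATC, AP-1 was in 10.2% against 5.93%, RUNX in 6.20% against 3.14%, PU.1 in 2.32% against 0.833%, NF-kappaB in 1.40% against 0.558% and EBF1 in 3.62% against 1.74%, so that these ratios were as large as in all windows. The median GC content was 44% at the summits and 43% at 2 kb.

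**Figure D5:**
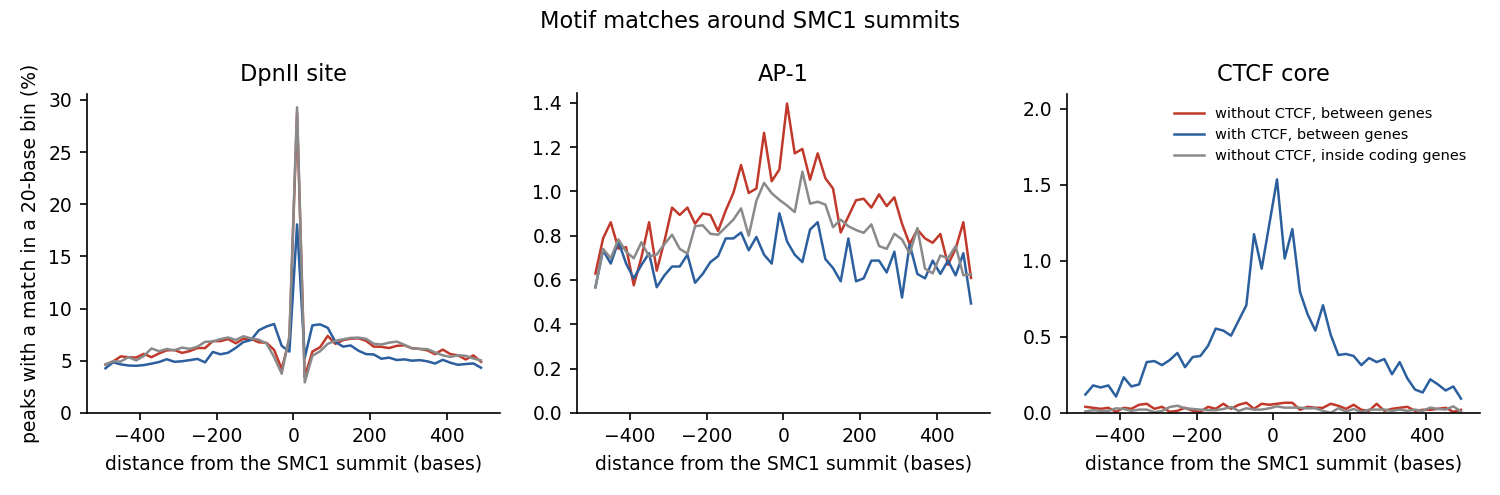
Share of peaks with a match in bins of 20 bases (vertical axis, percent) against the distance from the SMC1 summit in bases (horizontal axis) for GATC (left), AP-1 (middle) and the CTCF core (right), for CTCF-free peaks between genes (red), peaks with CTCF between genes (blue) and CTCF-free peaks inside coding genes (grey). GATC reaches 28.8% of the red peaks in the bin next to the summit, AP-1 is highest for the red line, at 1.40%, and the CTCF core rises only for the blue, to 1.54%.

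All 8-letter words were counted as a search without chosen motifs. On odd-numbered chromosomes, 5832 words were in at least 1% of the 7446 windows, and 49 of the 50 words with the highest ratio to the windows 2 kb away held GATC. The first was CAGATCTG, in 2.12% against 0.349%, and on even-numbered chromosomes, which took no part in the ranking, in 1.75% against 0.326% of 7657 windows. Without such words, the first was ATGACTCA, which holds the AP-1 letters, in 2.04% against 0.685%, and on even chromosomes 2.15% against 0.757%. The words AGGAAGTG, which holds the core of the ETS family to which PU.1 belongs, and GAAACCAC, which overlaps the RUNX letters on the other strand, were among the next 4, with 3.17% against 1.35% and 1.67% against 0.771% on even chromosomes.

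The share of SMC1 peaks that were CTCF-free and between genes ranged from 7.10% on chromosome 19 to 21.4% on chromosome 13. These were also the extremes of presence at an anchor of the SMC1-labelled list, 42.8% of 222 peaks on chromosome 19 and 4.37% of 526 on chromosome 13. The same chromosomes were the extremes for peaks with CTCF between genes, at 60.3% and 16.6%. CTCF-free peaks inside coding genes had 37.7% and 4.09% there, again the extremes. In the CTCF-labelled list the CTCF-free peaks between genes were highest again on chromosome 19, at 60.4%, and lowest on chromosome 4, at 25.7%. Chromosome 19 was highest in that list for the comparison peaks too, at 77.2% and 59.9%. The CTCF-free peaks between genes also had their highest median −log10 q on chromosome 19, 9.49.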

How the data were processed

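HiChIP libraries of HG00731 cells (2 replicates each for SMC1 and CTCF) were merged by the authors, who aligned the reads with BWA-MEM, kept well-mapped reads and called peaks with MACS3 (version 3.0.1 in the submitters' processing notes) without an input, at q 0.01. The deposited peak lists give the fold enrichment (a ratio to local background), the −log10 q and the summit. The loop lists deposited by the authors, made with MAPS in 5 kb bins, give the read pair count and the expected count of each loop. The authors' p-value and false discovery rate columns were not used. Coordinates were hg38. Here peaks were classified against GENCODE release 44 by overlaps of at least 1 base, and motifs were read from the hg38 reference. Only pooled lists were used here, so shares carry 95% Wilson intervals and medians rank intervals, which cover counting error only; no test was run. Python 3.11.15, numpy 2.4.6, pandas 2.3.3 and scipy 1.17.1 were used, and the interval functions were tested on simulated data. The named sites were the 5 peaks of highest −log10 q, the 5 widest, and in each loop list the 5 loops of most read pairs from a CTCF-free anchor; the named genes were the 10 joined to the most such anchors, with ties cut in alphabetical order, and the listed genes with at least 1; some of these are not reported here. The strongest peaks joined to leading genes were chosen after their values were seen. Members, gene lists and motifs were chosen with earlier results of these data known. Alternatives changed the q limit, the distances to CTCF and to starts, the gene bodies, the motif window and letters, the loops and their labels.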

Additional observations from a re-analysis of the deposited data

How the results depend on the processing

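No paired analysis was possible because the deposited lists pool both replicates and no result comes from a test; for the same reason no replicate could be left out. Of 41 alternative values, 22 stayed within the interval of the reported share or within 1.5 times the count. Those 22 include the partner share of the SMC1-labelled list under other choices of peaks or loops. That share could not move, because every loop of that list had a CTCF peak at an anchor. With a −log10 q of at least 10 there were 4951 peaks, of which 16.6% (SMC1-labelled) and 50.9% (CTCF-labelled) were at an anchor, and in the latter list the partner had CTCF in 67.4%. Without a CTCF peak within 5 kb the anchor shares were 5.61% and 24.7%, over 5 kb from every start 10.2% and 33.5%, outside every gene body of any type 12.8% and 37.0%, and with loops of at least the median read pairs of their list 6.07% and 22.02%. With the loop lists exchanged, the anchor share of the one becomes that of the other, 35.3% for 11.4% and 11.4% for 35.3%, and the partner share 73.3% for 100% and 100% for 73.3%. The CTCF core was in 0.258% of windows of 100 bases, in 5.46% without its first 2 letters and, chosen after seeing the data, in 1.69% of windows of 1000 bases. Without its first 2 letters it was also in 5.11% (4.87 to 5.37) of the windows 2 kb away. At peaks with CTCF between genes that form was in 18.3%. A whole peak outside coding genes, in place of the summit, changed none of the 6 results beyond these limits. Restricting motif windows to those with GATC and ranking words without it were also chosen after seeing the data. Peak and loop values per replicate were not used here, which limits every share to counting error.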

Other observations

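Of 18390 annotated long non-coding RNA genes, 2027, or 11.02%, held the summit of at least 1 CTCF-free peak. MEF2C-AS1, which lies beside the gene of the B cell factor MEF2C, held 44, the highest number in 1 such gene, in 583 kb, or 7.55 per 100 kb. Others with many were DLEU1, with 34 in 825 kb, LINC00299, with 31 in 500 kb, LINC00598, with 30 in 457 kb and LINC00877, with 23 in 336 kb. These were chosen for their counts, so they are a description.

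Some megabases and coding genes had many CTCF-free peaks between genes in them or nearest to them. They were chosen for their counts. Other kinds of SMC1 peak and the length between genes were not counted beside them, so a gathering particular to these peaks is not shown. The megabase with the most, at chr12:92000001-93000000, held 61, of which 39 had BTG1, an antiproliferative gene, as the nearest coding gene; their median −log10 q was 9.78 and 34.4% were at an anchor of the CTCF-labelled list. A megabase beside KLF6, a Krüppel-like factor, at chr10:3000001-4000000 held 49, with 18.4% at such an anchor, and one beside MEF2C at chr5:89000001-90000000 held 47, with 17.02%. One beside TNFAIP3 at chr6:137000001-138000000 held 45, with 48.9%. Over all chromosomes, KLF6 was the nearest coding gene of 68 peaks, the most of any, and among others MEF2C of 53, TLE3, a corepressor, of 49 and BTG1 of 47.

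On odd-numbered chromosomes, where the 8-letter words were ranked, those with the lowest ratio of summit to 2 kb windows were AGGCCGAG, in 1.01% against 2.56%, and GGGATTAC, in 3.06% against 7.39%. On even-numbered chromosomes they were in 1.24% against 2.20% and 3.16% against 7.39%, and the former, at 0.564, had the highest ratio of the 10 lowest words. Both occur in Alu elements, a repeat family of primates; the part of repeats and of the mapping filter in these shares was not tested.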
